A study of Mus musculus with 461 samples.

Results

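Sox2 and 7 other Sox genes (Sox4, Sox5, Sox6, Sox9, Sox11, Sox12 and Sox15) were followed through a course of reprogramming of mouse fibroblasts. The 8 genes were taken by symbol from a list, and all 8 were among the 31673 genes of the deposited tables. Sox2 was put on the list because it was already known to be higher after day 0 in these cells, so its level against day 0 is given below as a description without a test. The study sequenced the RNA of 461 single mouse cells, captured on the Fluidigm C1 system on 6 days of a reprogramming course that the titles call 7F. All cells, day 0 included, came from embryonic fibroblasts of the OG2 transgenic mouse on a mixed background of 129SVJ (1/2), C57B6 (3/8) and CBA (1/8), and OG2 cells carry a fluorescent reporter of Oct4 (Pou5f1). Fibroblasts were kept with 10% FBS, and cells under reprogramming were kept in iCD1 medium. Which factors were used is not named in the labels. The 7F mixture as published holds no Sox gene. The titles do not say whether the day 0 cells already carried the factors, so day 0 is not taken here as an untreated state.

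The titles carry a prefix (b1, b2 or b3) whose meaning the labels do not give, and the cells of 1 prefix and 1 day are called a set. Day 0 had 20 cells of b1 and 54 of b2, day 1 had 58 of b2, and day 3 had 61 of b1 and 58 of b2. Day 4 had 59 cells, all of b3, so this day and its prefix cannot be told apart. Prefix b2 gave 79 cells at day 5 and 65 at day 7, where b1 gave 5 and 2. The sets of 5 and 2 cells are left out of the tests. The total per cell ran from 0.319 to 6.999 M counts (M stands for mega; median over all cells 2.503 M), and the set of day 4 was the shallowest at a median of 0.983 M per cell.

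Sox genes code for transcription factors that bind DNA through an HMG box related to that of the sex-determining gene Sry. Sox2, of the SoxB1 group, binds with Oct4 to paired sites in embryonic stem cells and holds them pluripotent, and it also marks neural progenitors. The SoxC genes Sox4, Sox11 and Sox12 are active in embryonic mesenchyme and young neurons, Sox9 (SoxE) with Sox5 and Sox6 (SoxD) drives cartilage formation, and Sox15 (SoxG) is expressed in mouse embryonic stem cells.

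Promoter sequences were available for 7 of the 8 genes. They are RefSeq sequences of build GRCm38.p6, from 250 bases before to 50 bases after an annotated start, written 5′ to 3′ on the gene's strand. The promoters of Sox2 and Sox15 and of the SoxC genes Sox4 and Sox11 are shown. In the tested sets the first pair had higher and the second pair lower summed levels at day 7 than at day 0. Sox5 and Sox6 were also higher at day 7, and their windows are not shown. Capitals mark matches, on either strand, to the Sox core motifs ACAAAG and ACAATG and to the octamer ATGCAAAT. The motif ACAAAG occurs in 18.7% of all 32851 windows, ACAATG in 12.6% and ATGCAAAT in 1.74%. A match is a string of letters in this window and not a bound site.
Sox2, chr3:34649745-34650044, plus strand: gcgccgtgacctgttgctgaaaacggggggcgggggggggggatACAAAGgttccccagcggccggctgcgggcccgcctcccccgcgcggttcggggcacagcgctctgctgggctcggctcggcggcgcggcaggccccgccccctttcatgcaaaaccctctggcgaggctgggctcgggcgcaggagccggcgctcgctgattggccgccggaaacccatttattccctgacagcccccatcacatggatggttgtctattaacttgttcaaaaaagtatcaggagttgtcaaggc
Sox15, chr11:69654787-69655086, plus strand: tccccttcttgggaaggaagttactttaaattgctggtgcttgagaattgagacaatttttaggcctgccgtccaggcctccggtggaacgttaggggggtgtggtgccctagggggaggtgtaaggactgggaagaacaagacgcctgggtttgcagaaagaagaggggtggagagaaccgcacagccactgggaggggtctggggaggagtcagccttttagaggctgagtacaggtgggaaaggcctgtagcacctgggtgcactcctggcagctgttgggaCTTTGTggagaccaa
Sox4, chr13:28953650-28953949, minus strand: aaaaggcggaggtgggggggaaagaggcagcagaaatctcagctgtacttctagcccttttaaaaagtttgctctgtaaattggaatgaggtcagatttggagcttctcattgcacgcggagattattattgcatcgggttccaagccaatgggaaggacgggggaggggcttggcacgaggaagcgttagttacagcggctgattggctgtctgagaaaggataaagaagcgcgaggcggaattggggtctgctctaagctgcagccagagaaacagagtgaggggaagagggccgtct
Sox11, chr12:27342669-27342968, minus strand: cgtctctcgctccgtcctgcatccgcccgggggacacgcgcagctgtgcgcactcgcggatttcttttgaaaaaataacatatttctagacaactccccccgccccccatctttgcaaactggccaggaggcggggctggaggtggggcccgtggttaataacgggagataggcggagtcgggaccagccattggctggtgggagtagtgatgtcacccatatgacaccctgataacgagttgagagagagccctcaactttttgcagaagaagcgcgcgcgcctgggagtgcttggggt
The Sox2 window held 1 match to ACAAAG, and the Sox15 window held 1 match to the same motif on the other strand, 35 bases after the start. The Sox4 and Sox11 windows held none of the 3 motifs. Among the windows not shown, Sox12 had 1 match to ATGCAAAT and Sox5 had 1 to ACAATG. A Sox6 window had 4 matches to the Sox motifs. No contrast between the shown pairs is read from the matches. The Sox2 and Sox11 windows were rich in CpG dinucleotides (27 and 21), while Sox15 had 5 and Sox4 had 12, against a median of 7 over all windows.

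Levels are given on 2 scales. Counts summed over a set and scaled to counts per mega-count (CPM, with TMM factors) compare 1 gene between sets. Mean TPM over the cells of a set, which allows for gene length, compares genes. A gene was detected in a cell at a TPM of 1 or more. A summed level cannot tell fewer cells from less RNA per cell, so the share of cells and the level within them are given beside it.

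By mean TPM, the day 0 fibroblasts expressed Sox11, Sox9 and Sox4 above the other 5 genes in both sets. Sox11 stood at 182 in b1 and 141 in b2, Sox9 at 138 and 29.9, and Sox4 at 53.1 and 21.9. Sox12 and Sox6 lay between 2.12 and 6.05 TPM, and Sox2, Sox5 and Sox15 lay at 0.333 TPM or less. Sox9 and Sox4 in b2 differed by less than either gene differed between b1 and b2. By day 7 the order in b2 was Sox11 (69.7 TPM), Sox15 (52.6), Sox2 (33.9) and Sox4 (7.75), with Sox9 at 4.97. Sox11 had the highest mean TPM of the 8 genes in each of the 8 tested sets.

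**Figure D1:**
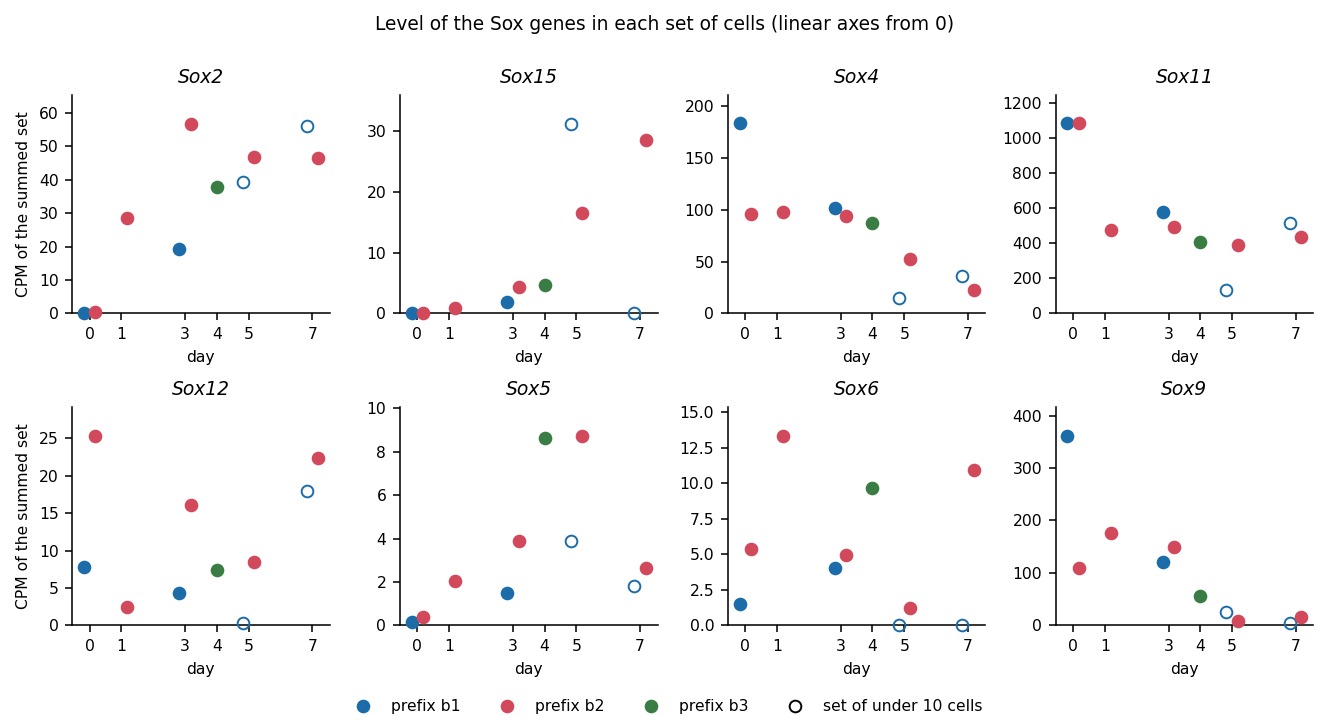
Level of each Sox gene (vertical axes, CPM of the summed counts, linear from 0) by day (horizontal axes). Each point is 1 set, coloured by title prefix, and open points are the 2 sets of under 10 cells; Sox2 and Sox15 are lowest at day 0 (Sox15 is also at 0 in the 2 b1 cells of day 7), Sox9 and Sox4 are lowest at days 5 and 7, and the 2 sets of day 3 lie far apart for Sox2 (19.3 and 56.5 CPM).

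Sox2 (ENSMUSG00000074637) was nearly absent at day 0 and present in most cells of b2 from day 1 on. Its summed level was 0.180 CPM in b1 and 0.397 CPM in b2 at day 0, and 28.6 CPM at day 1. At day 3 it was 19.3 CPM in b1 and 56.5 in b2, followed by 37.9 at day 4, 46.7 at day 5 and 46.3 at day 7. Every set after day 0 was above both day 0 sets. Within b2 the log2 ratio to day 0 was 6.17 at day 1, 7.15 at day 3, 6.88 at day 5 and 6.87 at day 7, and within b1 it was 6.75 at day 3. The values of days 1, 4, 5 and 7 all lay between the 2 sets of day 3, so those days did not differ beyond the spread of day 3. Day 7 against day 3, which does not use day 0, gave a log2 fold change of 0.29 ± 0.80 and an adjusted p of 0.939 in edgeR's quasi-likelihood test with Benjamini-Hochberg adjustment over 22378 genes. In the b2 set of day 3 a single cell at 440 TPM held 36.6% of the Sox2 counts.

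Sox2 was detected in most cells of every tested set after day 0, and the level within those cells was highest at day 7. Sox2 was detected in 1 of 20 b1 cells and 3 of 54 b2 cells at day 0 (5.0% and 5.56%). It was detected in 55 of 58 cells at day 1, or 94.8% (exact Clopper-Pearson 95% interval 85.6 to 98.9, for counting error only, as for all intervals here). At day 3 the sets differed, with 34 of 61 cells in b1 (55.7%, 42.5 to 68.5) and 54 of 58 in b2 (93.1%, 83.3 to 98.1). The shares were 52 of 59 at day 4 (88.1%), 64 of 79 at day 5 (81%) and 50 of 65 at day 7 (76.9%, 64.8 to 86.5). Among cells with Sox2, the median level was 9.08 TPM at day 1, 19 and 14.3 at day 3, 23.9 at day 4, 31.8 at day 5 and 36.9 at day 7. The order of the shares depended on the threshold, since at a TPM of 5 or more it was 65.5% of cells at day 1, 49.2% and 79.3% in b1 and b2 of day 3, and 72.3% at day 7. After each cell was thinned to 300000 counts the shares were 89.7% at day 1, 57.4% and 91.4% in b1 and b2 of day 3, and 76.9% at day 7. Sox2 lies within the long RNA gene Sox2ot, and the counting is not stated to use strand. Sox2ot itself lay between 0.900 and 6.38 CPM in the 8 sets.

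**Figure D2:**
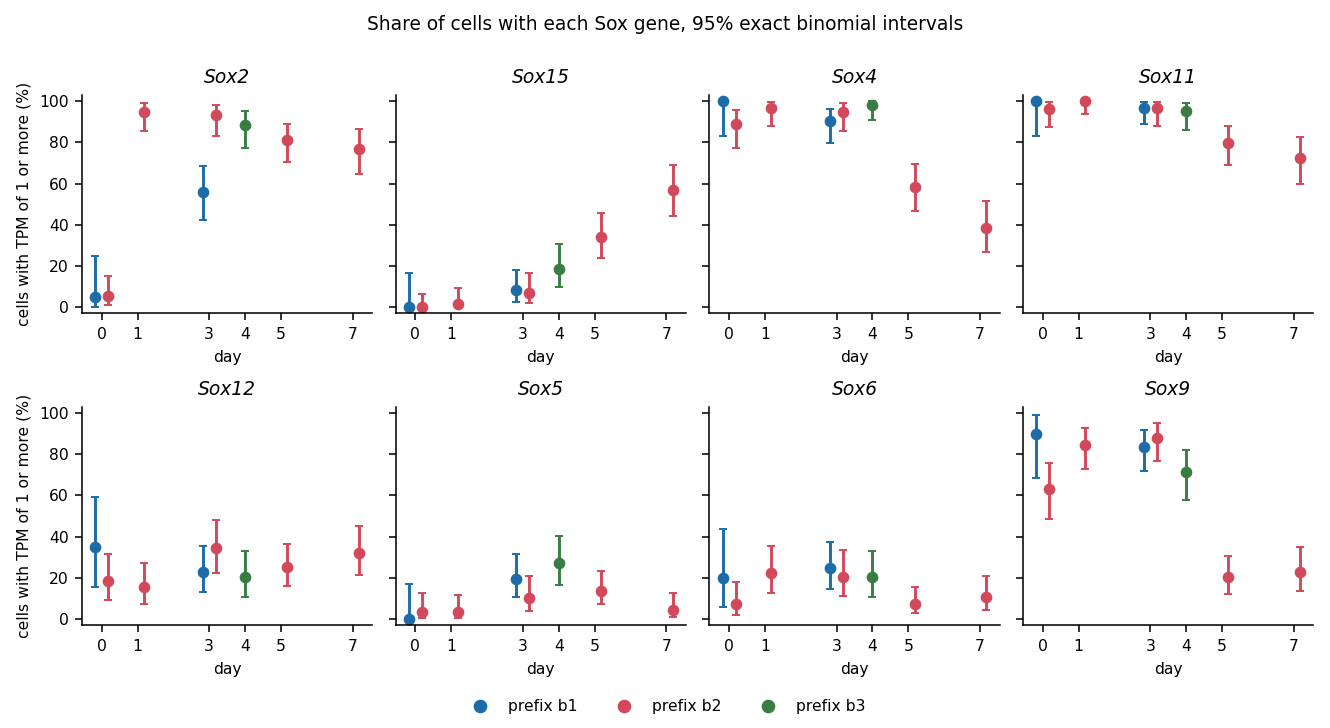
Share of cells with each gene at a TPM of 1 or more (vertical axes, percent) by day in the 8 sets of 10 or more cells, coloured by title prefix. Bars are exact 95% binomial intervals; Sox2 goes from 5.0% and 5.56% at day 0 to 94.8% at day 1, Sox15 goes from 0 to 56.9% at day 7, and Sox4 and Sox9 end at 38.5% and 23.1%.

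In the edgeR fit with a threshold of 0.05 on the adjusted p, all 8 genes passed the filter on low counts. Sox15, with no count at day 0, passed it only through the later days. The comparisons with day 0 share the same day 0 sets and are not independent. At day 1, 2 of 8 Sox genes were called higher (Sox2 and Sox15) and none lower, where 0.934% of the 22378 genes tested rose and 0.25% fell. At day 3 the same 2 were called higher and none lower, against 2.1% and 1.04% of all genes. At day 4, 2 were called higher and Sox9 was called lower, against 2.07% and 0.965%. At day 5, 2 were called higher and 2 lower (Sox9 and Sox11), against 2.56% and 2.18%. At day 7, 2 were called higher and 2 lower (Sox9 and Sox4), against 3.55% and 3.05%. Nothing is read from the calls of Sox2, for which the list was drawn up, or from those of Sox15 against day 0. The other members were also chosen with earlier results of these data known, and their calls carry that limit. At day 7 against day 3 none was called higher and 2 were called lower (Sox9 and Sox4), against 1.44% and 2.08% of all genes. The median log2 fold change of the 8 genes against day 0 was 0.76, -0.06, 0.41, -1.19 and 1.05 on days 1, 3, 4, 5 and 7. For all genes it was 0 except for 0.11 at day 3. Sox2 and Sox15 are among the 8, so nothing is read from these medians either. Sox12, Sox5 and Sox6 passed in no comparison of this fit. With limma on log2(TPM + 1) no gene at all was called (0 of 17892, with 1427 to 3501 genes at an unadjusted p under 0.05), so every call of a Sox gene given here ended under that test. Nothing in the labels says that the sets were separate cultures or animals, so the p-values measure no spread between cultures or animals. They rest on a spread shared over genes, taken from days 0 and 3, the only days with 2 tested sets.

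Sox15 (ENSMUSG00000041287) appeared later than Sox2 and in fewer cells. It had 0 counts in both day 0 sets and 0.880 CPM at day 1. It reached 1.82 CPM in b1 and 4.28 in b2 at day 3, 4.60 at day 4, 16.5 at day 5 and 28.5 at day 7. Each later tested set was above the day 0 sets, and the tested sets of days 5 and 7 were above all earlier ones. The 2 untested b1 cells of day 7 had 0 counts, as at day 0, and the 5 of day 5 stood at 31.1 CPM. Taking 3 counts over the whole of day 0 as a floor, Sox15 was at least 190-fold higher at day 3, 317-fold at day 4, 1140-fold at day 5 and 1970-fold at day 7. Its calls against day 0 are no support for these differences, since it entered the test only through the days where it was high. With the sets of 5 and 2 cells added, the calls at days 3 and 4 were lost (adjusted p = 0.228 and 0.197 in edgeR). The value at day 1 rested on 106 counts that all came from 1 cell, so that no count was left once that cell was taken out. Day 7 against day 3 gave 3.23 ± 1.47 on the log2 scale, which did not pass in edgeR (adjusted p = 0.294) and passed in DESeq2 (adjusted p = 0.0232).

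Sox15 was undetected in many cells of every tested set, and in each tested set after day 0 it was high in 1 cell or more. It was detected in none of 74 cells at day 0, and by the limit of 3 cells over the number of cells this allows a detected share of up to 15.0% in b1 and 5.56% in b2. It was found in 1 of 58 cells at day 1, in 5 of 61 and 4 of 58 at day 3, and in 11 of 59 at day 4 (18.6%). At day 5 it was in 27 of 79 cells (34.2%, 23.9 to 45.7) and at day 7 in 37 of 65 (56.9%, 44 to 69.2). The cells with Sox15 had a median of 56.1 TPM at day 5 and 68.8 TPM at day 7, with single cells up to 319 and 431 TPM. The fewer cells with Sox15 on earlier days spread over a like range. The cell of day 1 had 84.4 TPM, and those of day 3 had 4.07 to 143 TPM in b1 and 33.5 to 191 TPM in b2. At day 4 the range was 6.37 to 305 TPM. Thinning to 300000 counts left 31.7% of cells at day 5 and 52.3% at day 7. Its counts were spread over many cells by then, since the highest cell held 13% at day 5 and 12.9% at day 7.

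**Figure D3:**
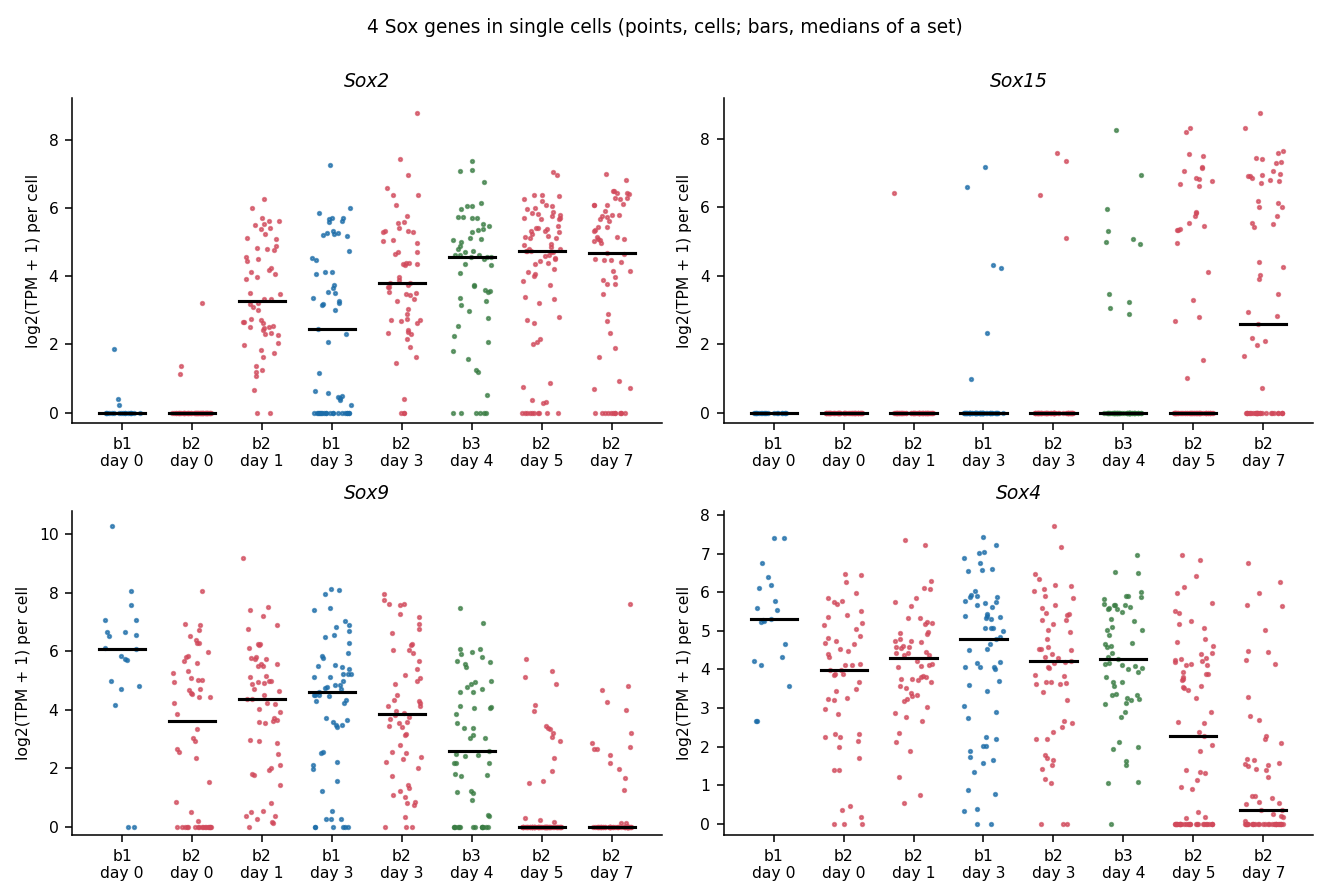
TPM of Sox2, Sox15, Sox9 and Sox4 in every cell of the 8 tested sets (vertical axes, log2(TPM + 1); horizontal axes, sets by prefix and day). Points are cells, coloured blue for prefix b1, red for b2 and green for b3, and black bars are set medians; most b2 cells have Sox2 from day 1, many cells of days 5 and 7 have no Sox15 while those with it spread widely around medians of 56.1 and 68.8 TPM, and the medians of Sox9 reach 0 at days 5 and 7.

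Of the SoxC genes, Sox4 (ENSMUSG00000076431) fell by day 7, while no earlier day passed the test. It measured 184 CPM in b1 and 96.3 in b2 at day 0, 98.5 at day 1, 102 and 94.3 in b1 and b2 at day 3, and 87.4 at day 4. The day 4 set already lay below both day 0 sets, and in b1 the log2 ratio of day 3 to day 0 was -0.85, against -0.03 in b2. At day 5 it was 52.2 CPM and at day 7 it was 23 CPM, below every other set of the fit. Day 7 against day 0 gave -2.61 ± 0.63 on the log2 scale (adjusted p = 0.00135 in edgeR), and day 7 against day 3 gave -2.09 ± 0.61 (adjusted p = 0.0219 in edgeR). Day 5 against day 0, at -1.42 ± 0.59, did not pass (adjusted p = 0.186 in edgeR). The share of cells with Sox4 was 58 of 59 at day 4 (98.3%), 46 of 79 at day 5 (58.2%) and 25 of 65 at day 7 (38.5%, 26.7 to 51.4). In the cells that kept it, the median was 16.4 TPM at day 5 and 5.46 TPM at day 7, against 18.6 TPM at day 4. The call of day 7 against day 3 was lost without either set of day 3 (adjusted p = 0.254 without b1 and 0.145 without b2 in edgeR). With the 2 small sets added, both calls of Sox4 were lost (adjusted p = 0.14 against day 0 and 0.418 against day 3 in edgeR).

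Sox11 (ENSMUSG00000063632) was lower in all sets after day 0. Its 2 day 0 sets were close, at 1086 CPM in b1 and 1085 in b2. It measured 476 CPM at day 1, 579 and 491 in b1 and b2 at day 3, 407 at day 4, 391 at day 5 and 437 at day 7. The sets after day 0 did not overlap with those of day 0, and the tested ones differed little among themselves. In the untested b1 cells Sox11 stood at 136 CPM at day 5 and 515 CPM at day 7. The log2 fold change against day 0 was -1.19 ± 0.47 at day 1, -1.02 ± 0.37 at day 3, -1.42 ± 0.48 at day 4, -1.47 ± 0.48 at day 5 and -1.31 ± 0.48 at day 7. It passed in edgeR at day 5 alone (adjusted p = 0.0463; 0.355, 0.123, 0.0847 and 0.0766 on the other days), and that call was lost without either set of day 3 (adjusted p = 0.235 and 0.263) and without the filter on low counts (0.0614). DESeq2 gave adjusted p-values of 0.0395 at day 4 and 0.0408 at day 7. The sum hid a split between cells, since the median over cells went from 79.9 and 110 TPM at day 0 to 22.9 TPM at day 5 and 8.90 TPM at day 7. At day 7 a single cell at 817 TPM held 22.3% of the counts. Sox11 was detected in 52 of 54 b2 cells at day 0 and in 47 of 65 at day 7 (72.3%).

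Sox12 (ENSMUSG00000051817) was low throughout and did not pass in any comparison. It lay between 2.42 CPM (day 1) and 25.3 CPM (b2, day 0), and its 2 sets of day 0 differed by as much as most days did (7.78 and 25.3 CPM). It was detected in 15.5% to 35% of cells of the 8 sets. A single cell held 23.7% to 63.2% of its counts in a set.

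Sox9 (ENSMUSG00000000567), the master regulator of cartilage, fell at days 5 and 7. It measured 361 CPM in b1 and 110 in b2 at day 0 and 175 CPM at day 1. At day 3 it was 121 CPM in b1 and 149 in b2, at day 4 it was 56.9, at day 5 it was 8.26 and at day 7 it was 15.2. The sets of days 1 and 3 lay within the range of day 0, and those of days 4, 5 and 7 lay below it. Against day 0 the log2 fold change was -4.83 ± 0.68 at day 5 (adjusted p = 3.91e-10 in edgeR) and -3.95 ± 0.65 at day 7 (adjusted p = 1.4e-07 in edgeR). Day 7 against day 3 gave -3.15 ± 0.62 (adjusted p = 4.68e-05 in edgeR). Both calls of Sox9 at day 7 were lost when prefix was added to the fit, as given in the closing section. Within b2 alone the log2 ratio to day 0 was 0.68 at day 1, 0.44 at day 3, -3.73 at day 5 and -2.84 at day 7, so that no lower level was seen there before day 5. The call at day 4 (-2.05 ± 0.58, adjusted p = 0.0185 in edgeR) was lost without the b1 set of day 0 (-0.94, adjusted p = 0.545) and without either day 3 set, and DESeq2 gave 0.0819.

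Fewer cells had Sox9 at the end, and those cells had less of it. It was detected in 18 of 20 b1 and 34 of 54 b2 cells at day 0, and in 49 of 58 at day 1 (84.5%). The share was 51 of 61 and 51 of 58 at day 3, 42 of 59 at day 4 (71.2%), 16 of 79 at day 5 (20.3%, 12 to 30.8) and 15 of 65 at day 7 (23.1%, 13.5 to 35.2). In cells with Sox9 the median was 31.3 TPM in b2 at day 0, 16.5 in b2 at day 3, 9.25 at day 5 and 5.59 at day 7. At day 7 a single cell at 193 TPM held 71.8% of the Sox9 counts.

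Sox5 (ENSMUSG00000041540) and Sox6 (ENSMUSG00000051910), the partners of Sox9 in cartilage, were found in few cells. Sox5 was at 0.180 and 0.371 CPM at day 0, at 2.06 CPM at day 1, at 1.48 and 3.88 at day 3, at 8.62 at day 4, at 8.73 at day 5 and at 2.64 at day 7. All later sets were above day 0, but none of the differences passed in edgeR (adjusted p from 0.184 to 0.95), whereas DESeq2 called day 3, 4, 5 and 7 higher (adjusted p from 0.00137 to 0.0489). Sox5 was detected in at most 27.1% of cells (16 of 59 at day 4), and the highest cell held 25% to 91.1% of its counts. Sox6 went from 1.53 and 5.35 CPM at day 0 to 13.3 at day 1, 4.02 and 4.97 at day 3, 9.68 at day 4, 1.25 at day 5 and 11 at day 7, with no order over the days. It was detected in 7.41% to 24.6% of cells, and a single cell held 33.3% to 82.7% of its counts.

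Sox2 was compared with Pou5f1, its partner in pluripotent cells, within single sets. At day 1, 12 of 58 cells had Pou5f1, and all 12 had Sox2, while 43 further cells had Sox2 without Pou5f1. In b2 of day 3 Sox2 was in 27 of 27 cells with Pou5f1 and in 27 of 31 without. In b1 of that day it was in 5 of 6 cells with Pou5f1 and in 29 of 55 without (52.7%, 38.8 to 66.4). At day 4 it was in 24 of 24 cells with Pou5f1 and in 28 of 35 without. At day 5 it was in 42 of 50 cells with Pou5f1 (84%, 70.9 to 92.8) and in 22 of 29 without (75.9%, 56.5 to 89.7). At day 7 it was in 47 of 51 cells with Pou5f1 (92.2%, 81.1 to 97.8) and in 3 of 14 without (21.4%, 4.66 to 50.8). Up to day 5 most cells without Pou5f1 had Sox2 in the b2 and b3 sets, against about as many with it as without in b1 of day 3, and at day 7 few did. The Spearman correlation of the TPM of both genes over cells of a set was 0.305 at day 1, 0.257 at day 5 and 0.566 at day 7 (58, 79 and 65 cells of 1 set each).

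At days 5 and 7 Sox15 went with Pou5f1 and Sox2, and Sox4 and Sox11 went against Pou5f1. At day 5 Sox15 was in 26 of 50 cells with Pou5f1 (52%, 37.4 to 66.3) and 1 of 29 without (3.45%, 0.0873 to 17.8), and at day 7 in 35 of 51 (68.6%, 54.1 to 80.9) and 2 of 14 (14.3%, 1.78 to 42.8). All 27 cells with Sox15 at day 5 had Sox2, as did 34 of 37 at day 7. Sox4 was in 20 of 50 cells with Pou5f1 (interval 26.4 to 54.8%) and 26 of 29 without (89.7%, 72.7 to 97.8) at day 5, and in 14 of 51 (27.5%, 15.9 to 41.7) and 11 of 14 (78.6%, 49.2 to 95.3) at day 7. From day 1 to day 4 the share of cells with Sox4 was 89.1% or more on either side, with the lowest share in b1 of day 3 (49 of 55 cells without Pou5f1). The median of Sox11 was 7.12 TPM in cells with Pou5f1 and 85.1 TPM in cells without at day 5, and 5.39 and 122 TPM at day 7. At day 4 these medians were 39.2 and 40.5 TPM. At day 5 no cell had both Sox15 and Sox9 (0 of 16 cells with Sox9 against 27 of 63 without), and at day 7 they were found together in 8 cells.

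**Figure D4:**
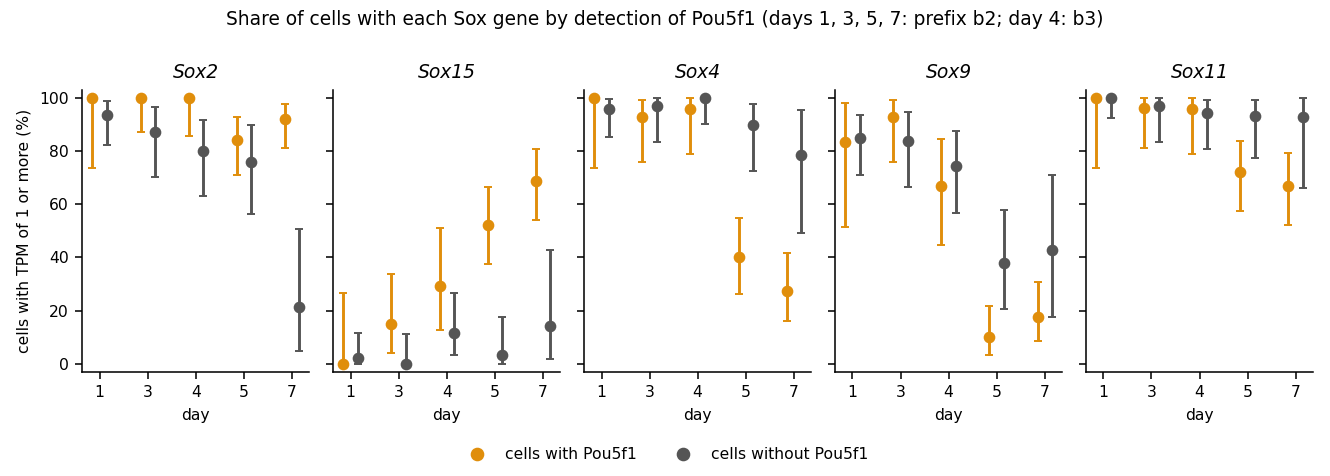
Share of cells with 5 Sox genes (vertical axis, percent of cells with a TPM of 1 or more) among cells with Pou5f1 (orange) and without it (grey) by day, in prefix b2 (days 1, 3, 5 and 7) and b3 (day 4). Bars are exact 95% binomial intervals over cells; the 2 groups of cells lie close together for Sox4 until day 4 (95.8% and 100.0%) and apart at day 5 (20 of 50 and 26 of 29 cells), and Sox2 lies apart at day 7 (92.2% and 21.4%).

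These splits are within 1 set each, without replicates, and are descriptions. The cells with and without Pou5f1 had like depth, at a median of 2.33 and 2.23 M counts at day 5 and 3.18 and 3.16 M at day 7. The median summed TPM of 9 other pluripotent cell markers was 7889 and 68 in these groups at day 5 and 14280 and 122 at day 7. The median summed TPM of 12 fibroblast markers was 139 and 191 at day 5 and 173 and 124 at day 7.

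Genes that cooperate with or are bound by Oct4 and Sox2 were listed next. Of 8 such genes, 3 rose at day 1, 6 at day 3, and 7 each on days 4, 5 and 7 against day 0, and 5 rose from day 3 to day 7. The share of all genes that rose against day 0 ran from 0.934% at day 1 to 3.55% at day 7. From day 3 to day 7 it was 1.44%. Their median log2 fold change was 3.69 at day 1 and 12.6 at day 7, against 0 for all genes. It was 1.36 and 11.9 with the 3 genes that had no counts at day 0 put at their lower bound. Those 3 genes entered the test only through later days, so their calls against day 0 are no support for a rise. The same holds for Pou5f1, which had 3 counts in b1 and 2 in b2 at day 0. Pou5f1 went from 0.0539 and 0.0132 CPM at day 0 to 4.23 CPM at day 1, 0.525 and 23.4 in b1 and b2 at day 3, and 86.1 at day 7. Its low value in b1 of day 3 stood in the set that was also lowest in Sox2 after day 0. Utf1, which codes for a chromatin factor of stem cells, was at 0.00662 CPM in b2 of day 0 (1 count) and at 0 in b1. At day 7 it was at 68.1 CPM (adjusted p = 2.17e-28 in edgeR). It too passed the filter only through the later days, so this call is no support for a rise. Spp1, which codes for osteopontin and is also expressed by fibroblasts, rose by 2.10 ± 0.44 at day 1 (adjusted p = 0.000474 in edgeR). Nanog fell at day 5 (-1.54 ± 0.49, adjusted p = 0.0368 in edgeR) from 474 and 675 CPM at day 0. Nanog is 1 of the factors of the published mixture, and vector and native transcripts cannot be told apart in these counts. Nanog was thus high at day 0, and whether those cells already carried the factors was not tested.

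Of 10 cartilage genes that Sox9, Sox5 and Sox6 are known to activate, none passed at day 1, 1 rose at day 3, 2 rose and 1 fell at day 4, and 1 rose each at days 5 and 7. Of all genes, 2.1% rose at day 3, 2.07% rose and 0.965% fell at day 4, and 2.56% and 3.55% rose at days 5 and 7. Hapln1, which codes for a cartilage link protein, rose at days 3, 4, 5 and 7, by 3.72 ± 0.83 at day 3 (adjusted p = 0.00065 in edgeR) and 3.38 ± 0.89 at day 7 (adjusted p = 0.00466). Its levels were 1.04 and 2.77 CPM at day 0, 57.5 CPM at day 4 and 19.9 CPM at day 7. Col2a1, the main cartilage collagen, fell at day 4 (-4.59 ± 1.33, adjusted p = 0.0225 in edgeR), and Col9a2 rose at that day (3.05 ± 0.94, adjusted p = 0.0404 in edgeR). The median of the list was -1.87 at day 7 (-1.42 with genes at their bound). Of 2 genes named as SoxC targets, Tubb3, a neuronal tubulin, fell at day 1 (-4.72 ± 1.17, adjusted p = 0.0077 in edgeR) and rose at day 7 (3.15 ± 0.87, adjusted p = 0.00768 in edgeR). Its day 0 sets were at 20.1 and 1.48 CPM and day 7 at 95.4. Tead2 did not pass at any day and lay between 28.2 and 79.4 CPM.

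Markers of other cells moved with the Sox genes as follows, and their part in the values above was not tested. The summed level of 12 fibroblast markers was 4427 and 4729 CPM at day 0, 1409 at day 1, 893 and 1253 at day 3, 1065 at day 4, 633 at day 5 and 597 at day 7. Of these 12, 2, 4, 4, 7 and 9 fell on days 1, 3, 4, 5 and 7 and none rose. Against day 0, the share of all genes that fell ran from 0.25% at day 1 to 3.05% at day 7. The share that rose ran from 0.934% to 3.55%. Of 10 pluripotent cell markers, 5 rose at day 1 and all 10 on each later day, with a sum of 0.108 and 0.0265 CPM at day 0 and 4451 CPM at day 7. Of 10 neural progenitor markers 8 were tested, and Fabp7, a lipid binding protein of radial glia, was the only one to pass, at day 3 (3.88 ± 0.98, adjusted p = 0.00448 in edgeR). Fabp7 was at 8.05 CPM in b1 and 97.2 CPM in b2 of day 3, and the neural list summed to 128 CPM in that b2 set against 22.8 to 44.8 in the other 7. Of 8 endothelial and endoderm markers, 2 or 3 rose on each day against day 0, and Tek rose on every day. Tek, which codes for an angiopoietin receptor, had 0 counts at day 0. It was at 7.78 CPM at day 1 (adjusted p = 0.000458 in edgeR) and 16.2 CPM at day 7 (adjusted p = 2.31e-05 in edgeR). Genes without a count at day 0, such as Tek and 6 of the 10 pluripotent cell markers, entered the test only through later days. The other pluripotent cell markers (Pou5f1, Tdh, Dppa5a and Utf1) had 3 counts or fewer in each day 0 set. They too passed the filter only through later days. The calls of all these genes against day 0 are no support for a rise.

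Among 12 further Sox genes, 10 were tested and Sox10 alone passed. Sox10, the neural crest gene, was called higher at day 3 (adjusted p = 0.0295 in edgeR) and at day 5 (adjusted p = 0.0333 in edgeR). It had 0 counts at day 0 and day 7, so it entered the test only through the days between, and its calls are no support for a rise. A single cell held 89.6% and 97.1% of its counts in the day 3 sets and all of them at day 5. Sox21, a SoxB2 gene, did not pass and was detected in 10 of 79 cells at day 5 and 11 of 65 at day 7, against 0 of 74 at day 0. Sox17, the endoderm gene, was at 0.945 CPM or less in all 8 sets, and Sox18, the endothelial gene, at 4.39 CPM or less.

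The genes most like each member over the 8 sets were ranked by Pearson's r of log2(CPM + 1) among 10759 genes, as a description without a test. The sets share prefixes and a course of days, so high values are common. For Sox2 these were E2f8 (r = 0.986), Gtf3c2 (0.986), Tdh (0.986), Tbc1d13 (0.971) and Pars2 (0.970). Tdh, the threonine dehydrogenase of mouse embryonic stem cells, went from 0.0539 and 0 CPM at day 0 to 70.9 CPM at day 1 and 582 CPM at day 7. E2f8, which codes for a transcriptional repressor of the E2F family, went from 3.04 and 3.39 CPM to 17.6 and 32 CPM. For Sox15 these were Plekhf2 (0.993), Ccnf (0.992), Pak4 (0.989), Nup210 (0.982) and Cdkn2aipnl (0.980). Nup210, a protein of the nuclear pore, was at 0 CPM in both day 0 sets, at 14.6 CPM at day 4 and at 76.3 CPM at day 7. For Sox9 these were Mgat2 (0.986), Nf1 (0.985), Rcan2 (0.973), Kdelc2 (0.973) and Adcyap1r1 (0.969). Nf1, which codes for a brake on Ras, went from 252 and 156 CPM at day 0 to 68.9 CPM at day 7. For Sox4 these were Fkbp14 (0.977), Impad1 (0.976), Gxylt2 (0.974), Chst2 (0.966) and Rsph3b (0.965). For Sox11 these were Tmem263 (0.978), Marcks (0.975), Ryk (0.973), Zyx (0.972) and Ppp1r18 (0.971). Marcks, an actin-binding substrate of protein kinase C, went from 2524 and 2647 CPM at day 0 to 955 CPM at day 1 and 591 CPM at day 7. Among the members, Sox2 and Sox11 lay furthest apart (r = -0.974), followed by Sox5 and Sox11 (r = -0.900) and Sox4 and Sox15 (r = -0.884). Sox4 and Sox9 went together (r = 0.861). For Sox5, Sox6 and Sox12 the most alike were Intu (0.977), Hexa (0.940) and Ift52 (0.961).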

How the data were processed

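For the 461 single-cell libraries the submitters' processing notes name bcl2fastq and RSEM 1.2.22. Which aligner, build and annotation were used is not given in the sources used here. The deposited expected counts are RSEM estimates per gene and cell, and 9.108% of values are not whole. The deposited TPM values of a cell sum to between 994110 and 999272. No cell was removed and no doublet caller was run.

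Cells are not replicates. Expected counts were summed per title prefix and day and rounded after summing. The 8 sets of 10 or more cells, with summed counts of 58.4 to 208.9 M, entered 1 fit in edgeR 4.0.16 (R 4.3.3) with day as the term, TMM factors, the filterByExpr filter and the quasi-likelihood F test. Standard errors are log2 fold changes divided by the root of F. Only days 0 and 3 had 2 sets, and their spread stands for the single sets of days 1, 4, 5 and 7. With 2 residual degrees of freedom and infinite prior degrees of freedom, a p rests on the spread shared over genes, which may be technical. Calls need a Benjamini-Hochberg adjusted p under 0.05. The test was tried on simulated data.

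Alternatives were DESeq2 1.42.0, limma 3.58.1 on log2(TPM + 1), RLE factors, no filter, all 10 sets, leaving out the highest cell or 1 set, and prefix as a block. Shares of cells were recomputed at a TPM of 5, at 1 count and after thinning to 300000 counts. Cell values used Python 3.11.15, numpy 2.4.6, pandas 2.3.3, scipy 1.17.1 and matplotlib 3.10.9. C1 reads carry no molecular identifiers here, so intervals and limits cover counting error only.

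The members and all gene lists were chosen with earlier results of these data known. The rule for named genes takes the 8 members, the 5 genes most like each member over the 8 sets with at least 10 CPM in 1 set, and from each list up to 4 called and 2 other genes. Some are left out for length.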

Additional observations from a re-analysis of the deposited data

Results flagged for a closer look

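Sox2 was measured at 39.1 CPM in the 5 cells of prefix b1 at day 5 and at 56 CPM in the 2 cells of b1 at day 7. These sets take no part in the tests, and both values were above all day 0 sets. Sox15 stood at 31.1 CPM in the 5 cells of day 5, against 0 at day 0, and at 0 in the 2 cells of day 7. Sox5 stood at 3.89 CPM and 1.79 CPM in the sets of 5 and 2 cells, against 0.371 CPM or less at day 0.

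Day 3 against day 0 ran in opposite directions in the 2 prefixes for Sox9 and Sox6. The log2 ratio of Sox9 was -1.57 in b1 and 0.44 in b2, a difference of 2.01. For Sox6 it was 1.40 in b1 and -0.11 in b2, a difference of -1.51. Each prefix had 1 set a day, so these differences were not tested.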

How the results depend on the processing

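Days 1, 4, 5 and 7 rest on 1 tested set each, and the day 4 cells were the shallowest. Of 520 recomputed log2 fold changes of the 8 genes, 446 kept direction and side of the threshold, 43 lost the call, 15 gained it and 16 turned their direction. The cause was not tested. On log2(TPM + 1), limma called 0 of the 8 genes in each of the 6 comparisons (and 0 of 17892 genes, with 1427 to 3501 at an unadjusted p under 0.05). With all 10 sets, 0 Sox genes were called at day 1, 1 at day 3, 1 at day 4 and 1 at day 7 against day 3. Without the highest cell of each set, 1 was called at day 1. Leaving out 1 set gave 1 to 2 calls at day 1, 2 to 3 at day 3, 2 to 4 at day 4, 3 to 5 at day 5, 4 to 5 at day 7 and 1 to 2 at day 7 against day 3.

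The log2 fold change over the fits that left out 1 set turned for several genes that had not been called. It ran from -0.29 to 1.26 for Sox2 and from -0.55 to 0.84 for Sox5, both at day 7 against day 3. It ran from -0.90 to 0.03 at day 1 and from -0.91 to 0.03 at day 3 for Sox4, from -1.05 to 0.68 at day 1 and from -1.42 to 0.30 at day 3 for Sox9, and from -0.25 to 1.55 at day 3 for Sox6. For Sox12 it ran from -1.92 to 0.39 at day 3, from -1.57 to 0.13 at day 5 and from -0.17 to 1.53 at day 7. Sox5 at day 7 against day 3 was also 0.04 with DESeq2, 0.04 with RLE factors and 0.78 with limma.

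With prefix as a replicate block, 0 Sox genes were called at day 1, 2 at day 7 and 0 at day 7 against day 3. In this blocked fit Sox2 at day 7 against day 3 was -0.20, Sox9 at day 1 was 0.09 and Sox12 at day 7 was -0.22. The calls of Sox9 (adjusted p = 0.0514 at day 7 and 0.133 at day 7 against day 3 in edgeR) and Sox4 (0.10 and 0.275) ended there. What the prefixes share is not given, and the deviations of days 0 and 3 correlated at r = 0.06 over 11670 genes. Of 80 shares of cells, 25 moved at a TPM of 5, 22 at 1 count and 2 after thinning.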
